A study of Homo sapiens with 32 samples.

Results

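Thapsigargin was given to C4-2B cells whose MOCOS messenger RNA had been lowered by RNA interference, and their transcriptomes were set against those of C4-2B cells with the same knockdown and no thapsigargin. C4-2B is an established, castration-resistant human prostate cancer line derived from LNCaP, itself an androgen-responsive line from a lymph node metastasis. The members are 8 of the 32 RNA libraries of the series, picked by treatment alone: 4 labelled siMOCOS with thapsigargin (TG) and 4 labelled siMOCOS with the vehicle. Every one of these 8 libraries carries the knockdown, and the labels of the 2 groups differ in TG. The other libraries of the series are C4-2B cells with a control siRNA (siCTRL), with and without TG, and the same 4 groups in LNCaP, with 4 libraries a group. No source used here gives the dose or duration of TG.

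Thapsigargin blocks the SERCA pumps that fill the endoplasmic reticulum (ER) with calcium, and client proteins then misfold in its lumen. The ER membrane sensors PERK, IRE1 and ATF6 start the unfolded protein response: XBP1 and ATF6 induce chaperones, degradation factors and secretory machinery, while PERK slows translation and, through ATF4 and CHOP, induces amino acid, redox and cell death genes. MOCOS encodes molybdenum cofactor sulfurase, which adds the sulfur that xanthine dehydrogenase (XDH) and aldehyde oxidase (AOX1) need; XDH turns hypoxanthine and xanthine, the end of purine breakdown, into urate. Prostate luminal cells are secretory and respond to androgens, which control the kallikreins among other genes.

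The knockdown is transient and incomplete, and the labels name 2 siRNAs against MOCOS that the count table does not tell apart, so both are pooled in each group and p-values treat their libraries as replicates. Library numbers below are those of the table's columns. The 4 siMOCOS libraries held 17331169 to 18979884 expected counts and the 4 with TG 17990754 to 22238356, and the gene with most counts took 2.58% to 5.16% of a library. Within both groups libraries 1 and 2 stood apart from libraries 3 and 4: across 10532 genes, deviations from the group mean correlated at 0.77 between siMOCOS libraries 1 and 2 and at 0.74 between 3 and 4, but at -0.90 to -0.86 across the pairs. With TG the split was weaker, and the same correlations were 0.48, 0.29 and -0.91 to -0.48. Deviations also correlated with transcript GC content across 9870 genes, at -0.45, -0.30, 0.41 and 0.34 in siMOCOS libraries 1 to 4. In TG libraries 1 to 4 these values were -0.09, 0.49, -0.54 and 0.18. What set the libraries apart was not tested. Luminal markers were present in all 8 libraries.

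Sequences that unfolded protein response factors are known to bind stand in front of some of the genes described. The promoters shown first all hold such a motif, except those of MOCOS and XDH. Each is the RefSeq window (GRCh38.p14) from 250 bases before to 50 after the gene's start, 5′ to 3′ on the gene's strand, and capitals mark a motif found by search on both strands. Promoter counts here and below are of genes with at least 1 window of this length that holds the motif. The ER stress element ERSE, CCAAT and CCACG 9 bases apart, bound by ATF6 and XBP1 with NF-Y, is in 25 of 27305 RefSeq genes (0.0916%). ERSE-II, ATTGG and CCACG 1 base apart, is in 19 (0.0696%). The UPR element TGACGTGG, an XBP1 core, is in 253 (0.927%), and its reverse strand can share CCACG with either element. The amino acid response element TTGCATCA, bound by ATF4 with a C/EBP partner, is in 295 (1.08%). Of 10787 tested genes with a window, 0.176% held an ERSE and 0.13% an ERSE-II. The UPR element was in 1.21% of them and the amino acid response element in 0.751%. A match is a description of the letters, not evidence of binding. Only windows with a motif were shown where a gene had one, and for CARS a further window with a UPR element was left out. Of 23 unfolded protein response sensors and transducers with a window, 1 held an ERSE and 1 an amino acid response element. None of them held an ERSE-II or a UPR element.
HSPA5, chr9:125241294-125241593, minus strand, ERSE: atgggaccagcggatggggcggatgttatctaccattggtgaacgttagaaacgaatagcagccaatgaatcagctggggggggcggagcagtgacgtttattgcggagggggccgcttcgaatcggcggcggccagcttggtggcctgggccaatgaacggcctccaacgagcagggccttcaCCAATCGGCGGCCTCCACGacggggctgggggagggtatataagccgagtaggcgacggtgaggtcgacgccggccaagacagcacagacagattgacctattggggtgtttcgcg
HSP90B1, chr12:103930160-103930459, plus strand, ERSE on each strand: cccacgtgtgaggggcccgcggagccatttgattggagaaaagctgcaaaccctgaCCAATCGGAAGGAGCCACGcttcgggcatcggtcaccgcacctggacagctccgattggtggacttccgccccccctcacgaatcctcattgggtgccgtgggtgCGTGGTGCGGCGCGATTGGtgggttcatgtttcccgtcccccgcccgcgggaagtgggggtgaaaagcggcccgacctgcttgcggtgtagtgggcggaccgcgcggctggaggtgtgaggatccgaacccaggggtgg
XBP1, chr22:28800520-28800819, minus strand, ERSE: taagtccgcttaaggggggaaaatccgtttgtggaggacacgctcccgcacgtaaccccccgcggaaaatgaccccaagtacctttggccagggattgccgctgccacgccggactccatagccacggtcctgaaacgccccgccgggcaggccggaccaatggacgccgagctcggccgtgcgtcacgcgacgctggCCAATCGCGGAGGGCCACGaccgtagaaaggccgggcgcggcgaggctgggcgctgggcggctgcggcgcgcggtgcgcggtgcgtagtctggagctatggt
HERPUD1, chr16:56931892-56932191, plus strand, ERSE-II and amino acid response element: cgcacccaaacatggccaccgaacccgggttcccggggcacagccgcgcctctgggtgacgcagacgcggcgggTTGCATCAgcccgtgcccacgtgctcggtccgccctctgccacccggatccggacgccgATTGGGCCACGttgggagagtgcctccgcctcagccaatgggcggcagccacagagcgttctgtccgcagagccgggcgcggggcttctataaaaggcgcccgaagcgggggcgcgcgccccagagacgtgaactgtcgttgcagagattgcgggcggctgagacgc
CHAC1, chr15:40953221-40953520, plus strand, amino acid response element: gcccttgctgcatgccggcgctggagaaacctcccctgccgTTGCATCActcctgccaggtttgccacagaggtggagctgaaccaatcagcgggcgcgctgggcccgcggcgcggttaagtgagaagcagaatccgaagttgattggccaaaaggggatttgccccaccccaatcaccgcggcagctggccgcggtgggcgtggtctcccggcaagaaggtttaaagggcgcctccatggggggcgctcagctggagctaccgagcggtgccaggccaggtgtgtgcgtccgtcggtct
SLC1A4, chr2:64989149-64989448, plus strand, amino acid response element: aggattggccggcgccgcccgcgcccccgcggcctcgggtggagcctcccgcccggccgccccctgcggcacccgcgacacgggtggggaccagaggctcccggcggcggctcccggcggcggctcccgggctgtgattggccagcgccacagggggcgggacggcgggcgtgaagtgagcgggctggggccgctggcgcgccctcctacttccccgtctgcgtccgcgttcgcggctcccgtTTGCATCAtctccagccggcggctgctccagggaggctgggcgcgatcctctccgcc
CARS, chr11:3057374-3057673, minus strand, amino acid response element: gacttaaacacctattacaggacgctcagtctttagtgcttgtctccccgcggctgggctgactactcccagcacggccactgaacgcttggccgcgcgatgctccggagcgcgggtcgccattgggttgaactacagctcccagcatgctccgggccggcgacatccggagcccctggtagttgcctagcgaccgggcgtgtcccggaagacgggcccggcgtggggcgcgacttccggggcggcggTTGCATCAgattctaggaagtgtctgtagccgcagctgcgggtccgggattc
SEC24A, chr5:134648535-134648834, plus strand, UPR element: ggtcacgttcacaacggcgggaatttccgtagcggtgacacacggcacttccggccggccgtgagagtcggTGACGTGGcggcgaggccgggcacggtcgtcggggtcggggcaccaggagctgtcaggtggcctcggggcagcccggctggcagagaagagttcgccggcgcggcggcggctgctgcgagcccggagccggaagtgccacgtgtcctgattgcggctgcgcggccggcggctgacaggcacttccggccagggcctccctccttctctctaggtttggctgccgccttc
MOCOS, chr18:36187247-36187546, plus strand, none of the 4 motifs: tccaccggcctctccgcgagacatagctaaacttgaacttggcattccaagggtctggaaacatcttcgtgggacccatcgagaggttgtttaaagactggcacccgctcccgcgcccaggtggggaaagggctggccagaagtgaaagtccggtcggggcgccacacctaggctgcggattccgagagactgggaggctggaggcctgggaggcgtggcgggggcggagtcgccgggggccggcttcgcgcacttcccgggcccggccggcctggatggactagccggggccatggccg
XDH, chr2:31414693-31414992, minus strand, none of the 4 motifs: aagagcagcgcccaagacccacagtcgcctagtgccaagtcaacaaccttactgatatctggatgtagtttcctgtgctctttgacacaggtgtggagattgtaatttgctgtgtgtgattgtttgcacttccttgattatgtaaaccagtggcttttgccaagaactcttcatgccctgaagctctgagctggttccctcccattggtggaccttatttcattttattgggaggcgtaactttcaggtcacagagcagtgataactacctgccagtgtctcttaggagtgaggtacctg

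MOCOS messenger RNA rose with TG even under the knockdown, and so did its client XDH. In control C4-2B libraries without TG, MOCOS stood at 34.1, 35.8, 31.1 and 31.1 CPM (counts-per-million, scaled for library composition), against 2.37, 2.97, 4.12 and 4.84 CPM in the siMOCOS libraries 1 to 4. The knockdown without TG was a log2 change of -3.21 (SE 0.22, adjusted p = 4.48e-08, edgeR quasi-likelihood test, Benjamini-Hochberg over 14127 genes, as throughout). All 4 knockdown libraries lay below all 4 controls, as their labels say. With TG the siMOCOS libraries reached 12.3, 11.3, 19.5 and 19.8 CPM, a log2 change of 2.14 (SE 0.22, adjusted p = 8.19e-07). Every TG library was above every siMOCOS library and below every untreated control, and libraries 3 and 4 were the higher pair in both groups.

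XDH stood at 3.07, 4.17, 5.93 and 6.16 CPM in the siMOCOS libraries and at 28.9, 31.2, 29.5 and 28.4 CPM with TG. The groups were far apart, and the 4 TG libraries lay close together; the log2 change was 2.61 (SE 0.19, adjusted p = 2.01e-08). Without TG, XDH was also higher under the knockdown than in the control libraries, at 2.09, 1.86, 2.098 and 1.595 CPM there (log2 change 1.33, adjusted p = 0.000186). AOX1, the other client of MOCOS, was barely detected: 1.08, 0.824, 0.384 and 0.102 CPM without TG and 0.896, 1.52, 0.98 and 0.69 CPM with it, groups that overlap (log2 difference 0.77, adjusted p = 0.232). SUOX, sulfite oxidase, which uses the cofactor without MOCOS, went from 76.97, 83.8, 90.6 and 82.9 CPM to 40.1, 43.1, 31.5 and 35.2 CPM. It fell in every TG library relative to every untreated one (log2 change -1.16, SE 0.13, adjusted p = 2.19e-06). MARC1, a mitochondrial molybdenum reductase, also fell (log2 change -0.73, adjusted p = 0.0145), but its adjusted p was 0.0614 with the 8 siMOCOS libraries fitted alone. The cofactor synthesis genes MOCS1, MOCS2, MOCS3 and GPHN had log2 differences of 0.02, 0.03, -0.11 and -0.27, none past the test.

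**Figure D1:**
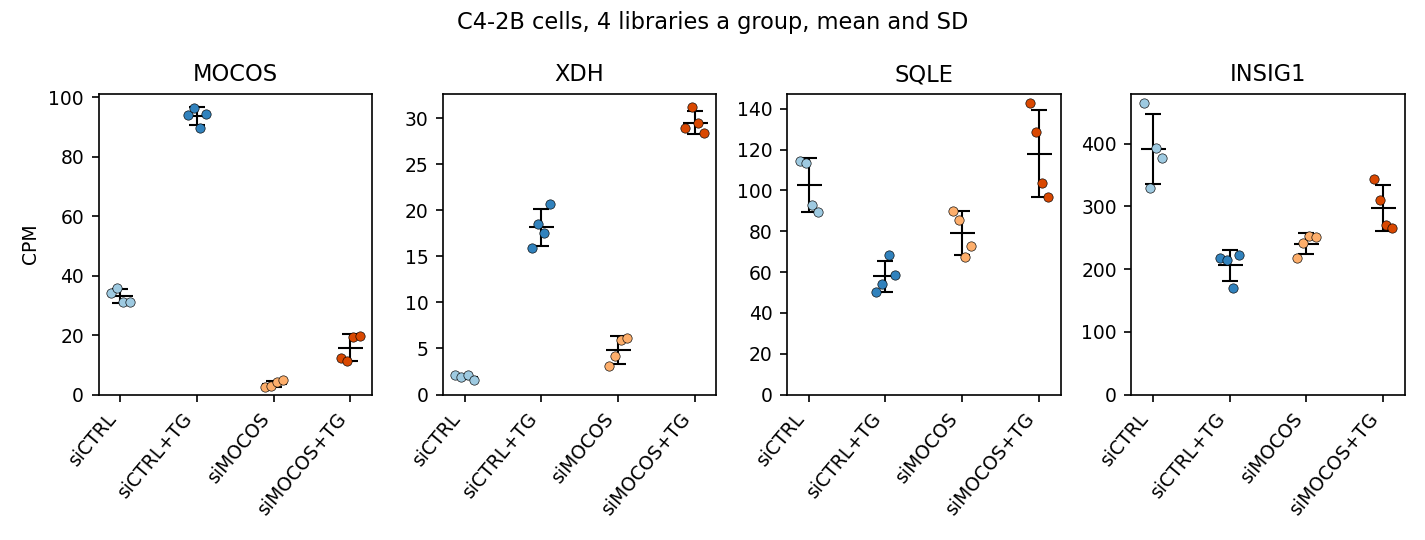
CPM of MOCOS, XDH, SQLE and INSIG1 (linear axes from 0) in the 4 C4-2B groups, siCTRL and siMOCOS with and without TG; each point is 1 of 4 libraries, the bar the mean and the whiskers 1 SD. MOCOS is lowest in the siMOCOS libraries and higher with TG on both backgrounds, and XDH is highest in siMOCOS libraries with TG.

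Across the transcriptome TG changed 5360 of 14127 genes tested in the siMOCOS cells at an adjusted p under 0.05 (37.9%), of which 2926 rose (20.7%) and 2434 fell (17.2%). The median log2 change over all genes tested was -0.02, that of the genes that rose 0.86 and that of the genes that fell -0.80. Rises over 2-fold were found for 1176 genes and falls over 2-fold for 787. In 2710 genes (19.2%) all 4 TG libraries were above all 4 others, and in 2204 (15.6%) below. These shares are the background for each list below: since TG changed 37.9% of the genes tested, a list with a similar share says nothing about its members. With libraries 1 and 2 alone 3817 genes passed and with libraries 3 and 4 alone 5609. RNA was pooled over all cells of a culture, so fewer cells of a type and less RNA per cell cannot be told apart.

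Sensors and transducers of the unfolded protein response were mostly higher with TG: of 24 tested of 26 listed, 15 rose, none fell and the median log2 change was 0.86, against -0.02 over all genes. The effectors at the end of the PERK arm moved most. DDIT3, encoding the death-promoting factor CHOP, went from 20.2, 18.3, 34.3 and 38.4 CPM to 201, 160.1, 367 and 291 CPM (log2 change 3.19, SE 0.31, adjusted p = 6.58e-07). The groups were separate, and libraries 3 and 4 were the higher pair in both. ATF3, a stress-induced partner of ATF4, went from 22.2, 19.1, 33.7 and 35.5 CPM to 199.7, 179, 601 and 546 CPM (log2 change 3.79, SE 0.36, adjusted p = 3.98e-07). All TG libraries exceeded all others. TRIB3, a pseudokinase that CHOP and ATF4 switch on, rose from 15.6, 13.6, 15.5 and 14.3 CPM to 118, 106, 103 and 101 CPM (log2 change 2.86, adjusted p = 6.68e-10). ATF4 itself, controlled mainly at translation, rose less, from 291, 236, 412 and 451 CPM to 552, 449, 776 and 626 CPM (log2 change 0.79, adjusted p = 0.0115). Its groups overlapped, since siMOCOS library 4 exceeded TG library 2.

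The sensors themselves rose. EIF2AK3, encoding PERK, went from 52.03, 48.98, 57.1 and 62.3 CPM to 179.6, 144, 197 and 154 CPM (log2 change 1.61, SE 0.14, adjusted p = 1.47e-07). ERN1, encoding IRE1, went from 35.8, 42.1, 43.6 and 41.8 CPM to 121, 139.8, 110.4 and 141 CPM (log2 change 1.65, SE 0.12, adjusted p = 2.11e-08). ATF6 went from 74.1, 73.8, 63.5 and 60.8 CPM to 131, 115, 141 and 129 CPM (log2 change 0.92, adjusted p = 5.65e-06). Each of these 3 sensors had separate groups. XBP1, the factor activated when IRE1 splices its messenger RNA, rose from 59.4, 62.2, 68.3 and 72.3 CPM to 155, 138, 186 and 159.6 CPM (log2 change 1.28, adjusted p = 1.27e-06); gene-level counts do not separate the spliced form. Its promoter above holds an ERSE. MAP3K5, the kinase ASK1 that IRE1 engages, rose by a log2 change of 1.56 (adjusted p = 1.17e-05), CREB3, an ER membrane factor of the ATF6 kind, by 1.26 (adjusted p = 5.78e-06), and WFS1, an ER calcium and ATF6 regulator, by 1.42 (adjusted p = 0.000608; 0.0543 with libraries 3 and 4 alone).

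The phosphatase subunits that reverse PERK's block on translation, PPP1R15A and PPP1R15B, rose by log2 changes of 0.91 (adjusted p = 0.00963) and 0.81 (adjusted p = 0.00169); with only 2 libraries a group the adjusted p of PPP1R15A was as high as 0.0634. NUPR1, a stress-induced chromatin factor, rose by 1.08 (adjusted p = 0.0151), but with libraries 3 and 4 alone its adjusted p was 0.386. CREB3L2 had a log2 change of 0.82 (adjusted p = 0.0305), and its call was lost with libraries 1 and 2 alone (adjusted p = 0.133) and without TG library 3 (0.128) or 4 (0.0995), or siMOCOS library 1 (0.0846) or 2 (0.0856). The other 9 members did not pass. These are the proteases MBTPS1 and MBTPS2, which cut ATF6 (log2 differences -0.18 and 0.02), the related factors ATF6B (-0.14) and CREB3L4 (-0.09), the PERK substrate EIF2S1 (-0.06), EIF2B1 (-0.21), CREBRF (0.34), TMBIM6 (-0.26) and TRAF2 (-0.34).

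**Figure D2:**
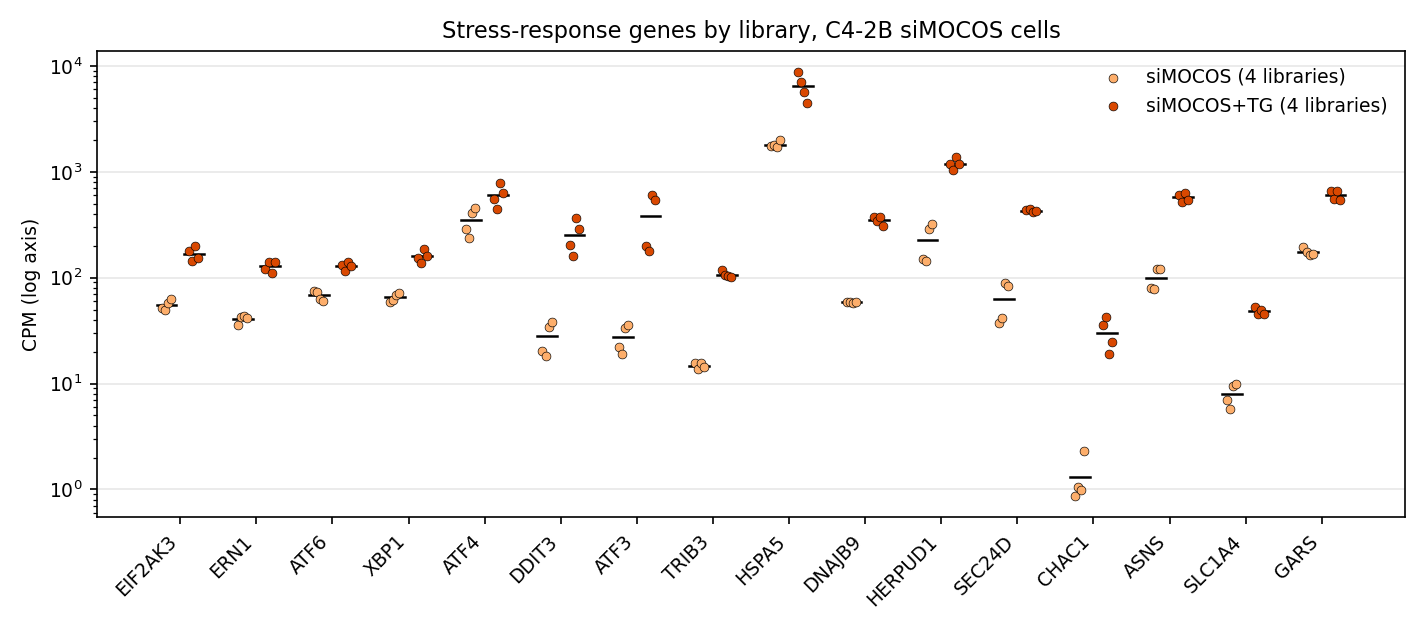
CPM (log axis) of 16 stress response genes in the 4 siMOCOS libraries and the 4 with TG; each point is 1 library and each bar a group mean. For every gene plotted except ATF4 all TG points lie above all untreated ones.

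ER chaperones and disulfide isomerases, the folding machinery that ATF6 and XBP1 control, rose in 23 of 41 members tested and fell in none (median log2 change 0.58). HSPA5, the lumenal HSP70 BiP that holds the sensors inactive, went from 1732, 1792, 1707 and 1982 CPM to 8758, 7034, 5696 and 4472 CPM (log2 change 1.85, SE 0.17, adjusted p = 2.89e-07). The lowest TG library was well above the highest untreated one. DNAJB9, a cochaperone of BiP that restrains IRE1, went from 59.4, 58.98, 57.9 and 59.3 CPM to 373, 341, 376 and 308 CPM (log2 change 2.57, adjusted p = 4.6e-10). FKBP14, a collagen prolyl isomerase, rose by a log2 change of 2.29 (adjusted p = 1.01e-08) and ERO1LB, an oxidase that recharges disulfide isomerases, by 1.87 (adjusted p = 2.89e-07), both with separate groups. HSP90B1, the lumenal HSP90, chosen after its values were seen because 2 ERSE lie in its promoter, went from 1799, 1828, 2629 and 2492 CPM to 4756, 4086, 4574 and 4166 CPM (log2 change 1.01, adjusted p = 1.68e-05).

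An ERSE was found in 7 of the 37 chaperone genes with a RefSeq promoter (18.9%). They are HSPA5, HSP90B1, CRELD2, ERO1LB, PDIA6, CALR and CANX, of which the first 5 rose and the lectin chaperones calreticulin (CALR, log2 difference 0.23, adjusted p = 0.14) and calnexin (CANX, 0.27, adjusted p = 0.246) did not pass. HYOU1 and SDF2L1, which work with BiP, hold an ERSE-II and rose by log2 changes of 1.32 and 1.24. These members and those of the other motif counts were picked by their promoter letters, not by their change.

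ER-associated degradation, which returns misfolded proteins to the proteasome, rose in 16 of 33 members and fell in 2. HERPUD1, a scaffold of the HRD1 ligase, went from 151, 143, 289 and 322 CPM to 1191, 1032, 1377 and 1183 CPM (log2 change 2.40, SE 0.24, adjusted p = 7.62e-07). The TG libraries stood far above the others; its promoter holds both an ERSE-II and an amino acid response element. SEL1L, which binds HRD1, rose from 312, 353, 388 and 388 CPM to 1059, 969.7, 1007 and 965 CPM (log2 change 1.47, adjusted p = 4.3e-07). The selenoproteins of the same complex, VIMP and SELK, rose by 1.64 (adjusted p = 5.56e-06) and 1.67 (adjusted p = 6.08e-06). UBE2G2, a ubiquitin-conjugating enzyme of the pathway, fell (log2 change -0.56, adjusted p = 0.00108). The second fall, of NPLOC4 (-0.29, adjusted p = 0.0399), was lost in 9 of 18 alternative analyses, among them libraries 1 and 2 alone (adjusted p = 0.343) and leaving out TG library 1 (0.0732) or 3 (0.116) or siMOCOS library 2 (0.079), 3 (0.0871) or 4 (0.0717).

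Genes for protein entry into the ER and export in COPII vesicles rose in 30 of 45 members and fell in none (median log2 change 0.56). SEC24A, a cargo adaptor of the COPII coat, went from 122, 126, 115 and 104 CPM to 389.9, 370.1, 350.2 and 335 CPM (log2 change 1.63, SE 0.13, adjusted p = 8.82e-08). SEC24D, its paralog, went from 37.3, 41.9, 89.01 and 82.9 CPM to 437, 445, 412 and 424 CPM (log2 change 2.77, adjusted p = 1.5e-07). Both had separate groups. SEC31A, the outer coat, rose by 1.38 (adjusted p = 9.92e-08) and SRPR, the receptor of the signal recognition particle, by 1.40 (adjusted p = 4.75e-07). The UPR element was in 8 of 40 promoters of this list: KDELR3, SEC16A, SEC23A, SEC24A, SEC62, SRP19 and SSR3 rose, and SSR4 did not pass (log2 difference -0.41). N-glycosylation and hexosamine genes were mixed, with 11 of 41 higher and 6 lower. These shares, 26.8% and 14.6%, were near the 20.7% and 17.2% of all genes. The hexosamine enzymes GFPT1 and PGM3 rose by 1.48 (adjusted p = 2.65e-06) and 1.27 (adjusted p = 3.2e-07), and MAGT1, of the oligosaccharyltransferase, by 0.83. ALG6 and DOLK, which build the dolichol-linked sugar, fell by log2 changes of -0.81 (adjusted p = 0.000168) and -1.25 (adjusted p = 0.00021).

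Of 31 ATF4 and CHOP effectors 22 rose and 2 fell, with a median log2 change of 1.41 against -0.02 over all genes. CHAC1, which cleaves glutathione, went from 0.862, 1.04, 0.988 and 2.29 CPM to 35.3, 42.2, 18.95 and 24.7 CPM (log2 change 4.53, SE 0.34, adjusted p = 3.01e-08). Library 4 stood out among the untreated libraries, and summed counts rose from 98 to 2359. STC2, a secreted glycoprotein, went from 121, 123, 149 and 155 CPM to 428, 426, 399 and 423 CPM (log2 change 1.61, adjusted p = 4.73e-09). CTH, which makes cysteine from cystathionine, rose by a log2 change of 2.07 (adjusted p = 7.92e-08), again with separate groups. ATF5, a relative of ATF4, fell (log2 change -0.71, adjusted p = 0.000692), as did BCL2L11, the death factor BIM (-0.66, adjusted p = 0.00265; 0.188 with libraries 3 and 4 alone). The amino acid response element was in 4 of 25 promoters of this list, those of CHAC1, CEBPG, JDP2 and FGF21, and all 4 genes rose; CEBPG, a C/EBP partner of ATF4, changed by 2.37 and the hormone FGF21 by 4.05.

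Enzymes making serine, proline, asparagine and folate-bound carbon units rose in 9 of 20 members and fell in 2. ASNS, asparagine synthetase, went from 79.6, 77.9, 121 and 119 CPM to 607, 519.8, 634 and 543 CPM (log2 change 2.53, SE 0.19, adjusted p = 3.15e-08). The groups were separate, and libraries 3 and 4 were the higher pair without TG. PSAT1 and PSPH, of serine synthesis, rose by 1.79 (adjusted p = 1.11e-08) and 1.80 (adjusted p = 1.96e-08), and MTHFD2, the mitochondrial folate enzyme, by 1.72 (adjusted p = 4.21e-08). The cytosolic SHMT1 fell by a log2 change of -0.57 (adjusted p = 0.000917). The other fall, of GLUL (-0.45), was lost without TG library 3 (adjusted p = 0.103) or 4 (0.107) or siMOCOS library 1 (0.113) or 2 (0.125), and with the 8 siMOCOS libraries fitted alone (0.111).

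Amino acid transporters split, with 9 of 21 higher (42.9%, against 20.7% of all genes) and 5 lower (23.8%, against 17.2%). SLC1A4, a neutral amino acid carrier, went from 7.06, 5.71, 9.55 and 9.83 CPM to 52.5, 45.2, 49.1 and 45.8 CPM (log2 change 2.58, SE 0.17, adjusted p = 6.48e-09). All 4 TG libraries were well above the others. SLC7A1, for cationic amino acids, rose by 1.41 (adjusted p = 3.53e-06), SLC38A1, for glutamine, by 1.25 (adjusted p = 3.61e-06) and SLC6A9, for glycine, by 2.20 (adjusted p = 3.81e-06). SLC7A6 and the taurine carrier SLC6A6 fell by log2 changes of -0.73 (adjusted p = 0.000883) and -1.43 (adjusted p = 0.00244). Of the cytosolic aminoacyl-tRNA synthetases, which charge tRNAs, 11 of 23 rose and 1 fell. CARS, for cysteine, went from 51.8, 54.1, 58.1 and 59.8 CPM to 194, 193, 163 and 169.5 CPM (log2 change 1.68, adjusted p = 3.77e-09), and GARS, for glycine, from 193, 176, 165 and 169 CPM to 657, 559, 660.3 and 546 CPM (log2 change 1.79, adjusted p = 2.34e-09). In both, no TG library overlapped the others. YARS and WARS rose by 1.29 and 1.41. QARS, for glutamine, fell (log2 change -0.46, adjusted p = 0.00262); the count of falls was 2 without TG library 3, and with a GC and length correction QARS itself no longer passed (adjusted p = 0.119). The amino acid response element was in 6 of 19 synthetase promoters (31.6%), those of AARS, CARS, IARS, MARS, NARS and TARS, and all 6 rose. It was in 2 of 18 transporter promoters, SLC1A4 and SLC1A5. The UPR element was in 2 of 18 as well, SLC7A6, which fell, and SLC7A8.

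Calcium handling genes rose in 4 of 20 tested members and fell in 1, so that rises were about as frequent as over all genes (20.7%). ATP2B1, a plasma membrane calcium pump, went from 232, 222, 125 and 131 CPM to 612, 528, 680.4 and 576 CPM (log2 change 1.76, adjusted p = 1.57e-06). ATP2A2, the SERCA pump that TG inhibits, went from 705, 811, 788 and 772 CPM to 1348, 1175, 1137 and 1042 CPM (log2 change 0.61, SE 0.12, adjusted p = 0.000627). All 4 TG libraries were above the others, library 1 the most. ORAI2, a store-operated channel subunit, rose by 1.22 (adjusted p = 4.68e-05) and ATP2C2, a secretory pathway pump, by 0.56 (adjusted p = 0.00732; 0.0615 with libraries 3 and 4 alone). STIM2, an ER calcium sensor, was the only fall (-0.36), a call held in 9 of 18 alternative analyses and lost with either pair of libraries alone (adjusted p = 0.0687 and 0.161) and without TG library 2, 3 or 4 or siMOCOS library 1 or 2, while 2 members passed without TG library 1.

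The called genes of purine breakdown beyond XDH did not move one way. Of 12 genes tested of 18 listed, 2 rose and 2 fell, shares of 16.7% each against 20.7% and 17.2% of all genes. The log2 difference, called or not, was positive in 3 of the 12, against 6819 of all 14127 genes. Its median was -0.21, against -0.02 over all genes. NT5C2, a nucleotidase acting on purine monophosphates, went from 144, 135, 103 and 111 CPM to 237, 211, 231 and 212 CPM (log2 change 0.85, adjusted p = 5.65e-05). PNP, which releases hypoxanthine and guanine from their nucleosides, went from 45.03, 49.97, 47.7 and 45.2 CPM to 34.96, 38.5, 16.9 and 17.1 CPM (log2 change -0.81, adjusted p = 0.00795; 0.117 with libraries 1 and 2 alone). So the enzyme that feeds XDH fell while XDH rose, both with separate groups. The small rise of ADAL (0.44, adjusted p = 0.0243) was lost with libraries 1 and 2 alone (adjusted p = 0.302), with a GC and length correction (0.332) and without TG library 3 (0.0896) or 4 (0.058), or siMOCOS library 1 (0.0505), 2 (0.0513) or 3 (0.0589). The small fall of NT5C3B (-0.36, adjusted p = 0.0187) was lost with libraries 1 and 2 alone (adjusted p = 0.0519) or 3 and 4 alone (0.0687), with the 8 siMOCOS libraries fitted alone (0.0598), and without TG library 4 (0.0664) or siMOCOS library 1 (0.0654). ADA, AMPD2 and ITPA had log2 differences of -0.39, -0.40 and -0.07, none past the test.

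Purine synthesis and salvage genes fell in 5 of 26 members (19.2%, near the 17.2% of all genes) and rose in none. GART, PRPS2 and the salvage enzyme HPRT1 fell by log2 changes of -0.51 (adjusted p = 0.00364), -0.54 (adjusted p = 0.00257) and -0.53 (adjusted p = 0.0103; 0.0907 with libraries 3 and 4 alone), and the mitochondrial AK3 by -0.65 (adjusted p = 0.000489). The count of falls was 8 with DESeq2, 10 with the library pairs as a block and 9 with a GC and length correction. Pyrimidine synthesis and salvage genes fell in 3 of 20 members (15.0%), UCK2 (-0.73), UMPS (-0.62) and DHODH (-0.67, adjusted p = 0.00366; 0.245 with libraries 1 and 2 alone). UPP1, uridine phosphorylase, rose from 0.485, 0.384, 0.549 and 0.356 CPM to 1.06, 0.993, 1.25 and 1.64 CPM (log2 change 1.47, adjusted p = 0.00262; 0.0958 with libraries 1 and 2 alone). UPP1 was the only member of either synthesis list to rise.

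Luminal and androgen-regulated genes were lower with TG more often than higher. Of 11 luminal factors tested, 5 fell and 1 rose, and of 29 androgen-regulated genes 18 fell and 4 rose. HOXB13, a prostate homeobox factor, went from 201, 211, 246 and 240.3 CPM to 82.01, 100.5, 66.3 and 81.9 CPM (log2 change -1.44, adjusted p = 8.77e-07). Its TG libraries lay below every other library. GATA2 fell by a log2 change of -1.10 (adjusted p = 0.00127; 0.0665 with libraries 1 and 2 alone, which left 2 of the 5 factors lower; 3 were lower without siMOCOS library 3). FOXA1, a pioneer factor of luminal cells, chosen after its values were seen, went from 568, 549, 516 and 518 CPM to 522, 551, 564 and 503 CPM, overlapping groups (log2 difference -0.01, adjusted p = 0.966). KRT18, a luminal keratin, rose by 0.60 (adjusted p = 0.0117), a call lost with libraries 3 and 4 alone (adjusted p = 0.326) and without TG library 1 (0.0532).

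Among the androgen-regulated genes, TMPRSS2, a serine protease, went from 604, 728, 911 and 939.7 CPM to 133, 153, 109 and 128 CPM (log2 change -2.60, SE 0.14, adjusted p = 1.18e-09). KLK3, encoding prostate-specific antigen, went from 87.6, 93.5, 145 and 166 CPM to 35.9, 29.3, 40.3 and 31.9 CPM (log2 change -1.84, SE 0.21, adjusted p = 3.85e-06). The kinase CAMKK2 went from 131, 129, 189 and 196 CPM to 35.7, 33.1, 55.3 and 59.2 CPM (log2 change -1.82, adjusted p = 4.6e-06). None of these groups overlapped. EAF2 and TMEM125 went the other way, by 1.44 (adjusted p = 8.84e-05) and 1.07 (adjusted p = 8.46e-05).

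Markers of cell types are given beside these genes. The summed level of 7 luminal markers was 2515 to 3121 CPM without TG and 1975 to 2110.5 CPM with it. This sum is not separate from the results above, since it includes HOXB13, KLK3 and TMPRSS2. Those 3 were the only markers of the 7 called lower, while KRT18 was called higher and 3 did not pass. Summed basal markers went from 0.211 to 0.271 CPM without TG to 1.28 to 3.87 CPM with it: TP63 was at 0 in all 4 siMOCOS libraries and had 171 counts over the 4 TG libraries, at least 13-fold higher against a floor of 3 counts a library, while KRT5 was at 0 without TG. Neuroendocrine markers summed to 4.45 to 9.26 CPM and 6.66 to 23.8 CPM, with CHGA, CHGB and INSM1 at 0 without TG and INSM1 at 0 with it. Their rise came from SYP, at 6.84, 6.75, 3.57 and 3.21 CPM and 21.5, 20.7, 6.05 and 6.56 CPM (log2 change 1.43, adjusted p = 0.00762), whose groups overlapped. Libraries 1 and 2 were the higher pair of SYP in both groups, and within each pair the TG libraries were the higher. Its call held in all 18 alternatives. Fibroblast markers summed to 7.91 to 12.4 CPM and 15.6 to 24.3 CPM, with COL1A2 at 0 in both groups and DCN at 0 without TG. COL1A1 rose (1.31, adjusted p = 0.00129) and PDGFRB fell (-2.34, adjusted p = 0.00033). Endothelial markers summed to 2.13 to 3.52 CPM and 4.01 to 7.29 CPM, with PECAM1 and CDH5 at 0 without TG. Immune markers summed to at most 0.276 CPM. The part of these markers in the luminal and androgen-regulated results was not tested.

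**Figure D3:**
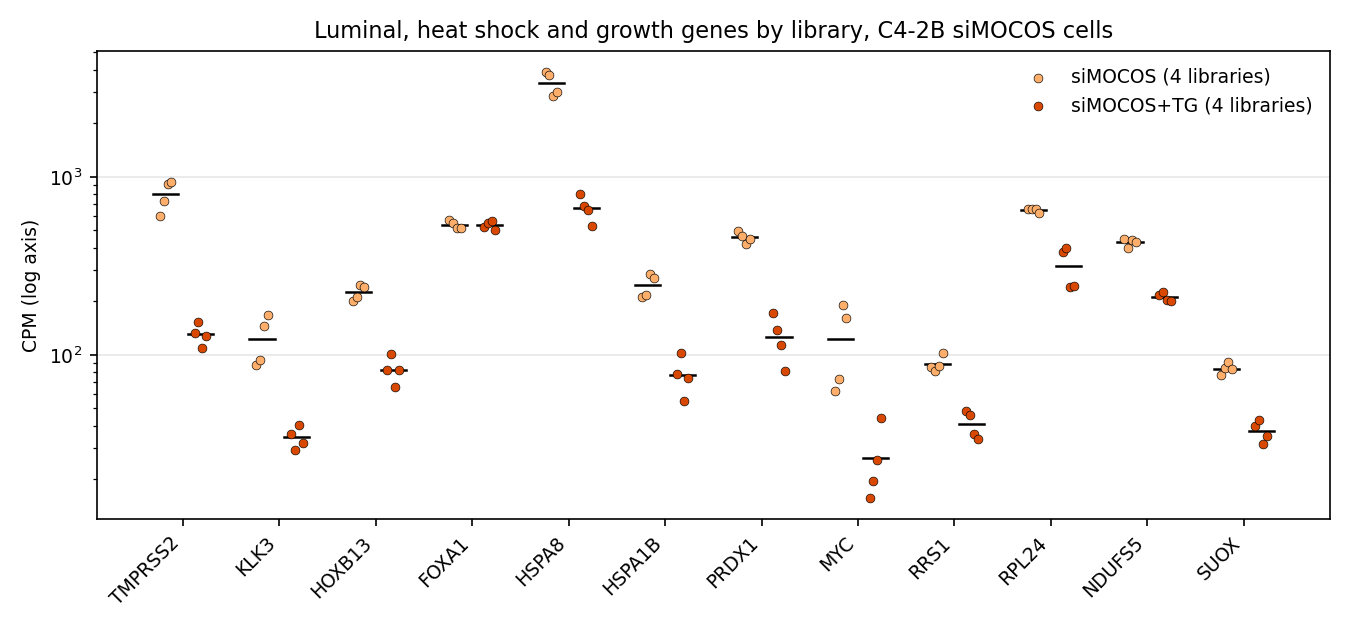
CPM (log axis) of 12 luminal, heat shock and growth genes in the 4 siMOCOS libraries and the 4 with TG; each point is 1 library and each bar a group mean. The TG points of HOXB13, KLK3 and TMPRSS2 all lie below the untreated ones.

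Of 42 G1/S and DNA replication genes 16 fell and 4 rose with TG. Of 48 G2/M genes 6 fell (12.5%, against 17.2% of all genes) and 2 rose; the lists were not tested against each other. UHRF1, which maintains DNA methylation, went from 5.601, 6.04, 8.02 and 6.42 CPM to 2.07, 2.72, 1.96 and 1.68 CPM (log2 change -1.63, adjusted p = 2.19e-06). MCM3 and UNG fell by log2 changes of -0.57 (adjusted p = 0.000677) and -0.71 (adjusted p = 0.000361). CDC6, which loads the MCM helicase, went the other way, from 22.5, 22.8, 28.1 and 30.9 CPM to 119, 101, 153 and 130.2 CPM (log2 change 2.27, SE 0.15, adjusted p = 1.01e-08). No CDC6 value overlapped. Of mitotic genes, the kinetochore genes SPC25 and SPC24 fell by -1.36 (adjusted p = 5.29e-06) and -1.13 (adjusted p = 0.0005), and the checkpoint gene BUB1B by -0.88 (adjusted p = 8.89e-05). The small rise of KIF2C (0.47, adjusted p = 0.0259) was lost without TG library 1 (adjusted p = 0.0811) or 2 (0.0766) or siMOCOS library 3 (0.0947) or 4 (0.0917), and mitotic rises numbered 1 without TG library 1 or siMOCOS library 3 or 4, and 7 with libraries 3 and 4 alone. MKI67, a proliferation marker chosen after its values were seen, had a log2 difference of -0.53 (adjusted p = 0.19). Counts depended on the setting: G1/S falls were 9 with the 8 libraries fitted alone or libraries 3 and 4 alone, and G2/M falls were 12 with the library pairs as a block or libraries 1 and 2 alone, and 14 with the GC and length correction.

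Among G1 cyclins, inhibitors and E2F factors 4 of 27 rose (14.8%, below the 20.7% of all genes) and 7 fell (25.9%, against 17.2%). The inhibitors CDKN1B (p27) and CDKN2B (p15) rose, from 50.95, 48.3, 49.4 and 49.8 CPM to 94.6, 115, 93.3 and 101 CPM (log2 change 1.02, adjusted p = 5.07e-06) and by a log2 change of 1.90 (adjusted p = 3.09e-05). E2F3 and CCNE1, cyclin E, fell by -1.15 (adjusted p = 4.99e-05) and -1.38 (adjusted p = 6.66e-05). Of 26 p53 targets 4 rose and 4 fell (15.4% each, below both shares of all genes). SESN2 (2.67), also an ATF4 target, and AEN (0.94) rose, and TP53INP1 (-1.29) and TRIAP1 (-1.02) fell. CDKN1A (p21), chosen after its values were seen, went from 159, 150.02, 54.3 and 54.5 CPM to 199, 232, 90.1 and 94.8 CPM and did not pass (log2 difference 0.56, adjusted p = 0.217). Libraries 1 and 2 were the higher pair in both groups, and within each pair the TG libraries were the higher. The count of p53 targets that rose was 9 with the library pairs as a block or libraries 3 and 4 alone, and 7 with the GC and length correction.

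Cell death genes moved in both directions. Of 17 BCL2 family members 3 rose (17.6%, below the 20.7% of all genes) and 5 fell (29.4%, against 17.2%). The BH3-only genes HRK and PMAIP1 (NOXA) rose: PMAIP1 went from 3.77, 3.13, 6.75 and 6.67 CPM to 12.8, 12.3, 38.9 and 31.7 CPM (log2 change 2.23, adjusted p = 0.000114) and HRK by 2.70 (adjusted p = 4.77e-05). BMF, a BH3-only gene as well, fell by -1.62 (adjusted p = 0.000513) and the pore former BAX by -0.97 (adjusted p = 0.00193; 0.0502 with libraries 1 and 2 alone). BCL2 family falls were 8 with the library pairs as a block. Of 23 death receptor genes 10 rose and 2 fell. The inhibitor of apoptosis BIRC2 and the NF-κB feedback gene TNFAIP3 rose by 1.27 (adjusted p = 4.35e-06) and 2.001 (adjusted p = 3.33e-05), while the decoy receptor TNFRSF10D fell by -1.88 (adjusted p = 2e-05) and TNFRSF10A by -0.90 (adjusted p = 0.000965). TNFRSF9 was at 0 in all 4 siMOCOS libraries and had 58 counts with TG, at least 4.62-fold higher. TNFRSF10B, the TRAIL receptor DR5 and a CHOP target, chosen after its values were seen, went from 146, 173, 203 and 209 CPM to 202, 198, 233 and 232 CPM and did not pass (log2 difference 0.24, adjusted p = 0.152).

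Cytosolic heat shock genes went against their ER counterparts: 14 of 26 fell and 3 rose. HSPA8, the constitutive cytosolic HSP70, went from 3874, 3723, 2833 and 2999 CPM to 805, 681, 648 and 532 CPM (log2 change -2.33, SE 0.14, adjusted p = 2.49e-09). HSP90AA1, the inducible HSP90, went from 2461, 2366, 2273 and 2163 CPM to 1261, 1086, 1514 and 1318 CPM (log2 change -0.84, adjusted p = 7.15e-05). HSPA1B and DNAJB1, an HSP70 and its cochaperone, fell by -1.67 (adjusted p = 2.06e-06) and -0.81 (adjusted p = 5.32e-05). HSPA1B has a near-identical copy, HSPA1A, and HSPA8, HSP90AA1, HSPE1 and ribosomal protein genes have many pseudogenes, so their counts are less certain. The 3 rises were reduced to 1 without TG library 3 or siMOCOS library 3 or 4; DNAJB4 had the smallest adjusted p of them (1.01, adjusted p = 0.0141; 0.0666 with the 8 siMOCOS libraries alone). In mitochondria, 3 of 17 chaperone and protease genes rose (17.6%, below the 20.7% of all genes) and 5 fell (29.4%, against 17.2%). Falls numbered 3 without TG library 3 or siMOCOS library 3 or 4. HSPA9 and YME1L1 rose by 0.84 (adjusted p = 1.45e-05) and 0.80 (adjusted p = 1.67e-05), and HSPE1 and PMPCA fell by -1.15 (adjusted p = 6.6e-06) and -1.25 (adjusted p = 1.85e-05).

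Genes for making protein and energy were lower. Of 79 cytosolic ribosomal protein genes 55 fell and none rose, and of 62 nuclear oxidative phosphorylation genes 29 fell and none rose. RPL24 went from 662, 657, 658 and 624 CPM to 380.04, 396, 239 and 243 CPM (log2 change -1.05, SE 0.16, adjusted p = 6.09e-05). RPL7A, RPL17 and RPL23 fell by -0.997 (adjusted p = 0.000124), -0.93 (adjusted p = 0.000172) and -0.83 (adjusted p = 0.000278). NDUFS5, of complex I, went from 445, 397, 441 and 432 CPM to 218, 224, 203 and 200.4 CPM (log2 change -1.02, adjusted p = 1.29e-05). In both genes the groups were separate. ATP5G1, UQCRH and COX7B fell by -1.21 (adjusted p = 4.76e-05), -1.06 (adjusted p = 0.000306) and -1.17 (adjusted p = 0.000326). With libraries 1 and 2 alone 20 ribosomal and 8 oxidative phosphorylation genes fell; the latter count was 17 without TG library 3 or 4 and 45 with the library pairs as a block. Across genes, the TG change correlated with transcript GC content at -0.28, a value given beside these falls whose part in them was not tested.

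Ribosome assembly genes of the nucleolus fell in 14 of 32 members and rose in 4 (2 without TG library 4). MYC, itself in this list and a driver of the others, went from 62.8, 72.9, 192 and 162 CPM to 15.7, 19.6, 25.8 and 44.1 CPM (log2 change -2.21, SE 0.35, adjusted p = 9.45e-05). All TG libraries lay below all others. UBTF and RRS1 fell by -0.91 (adjusted p = 2.28e-06) and -1.11 (adjusted p = 3.31e-06), while GNL3 and UTP14A rose by 0.79 (adjusted p = 9.55e-05) and 0.81 (adjusted p = 0.000297). Glycolysis and hypoxia genes fell in 16 of 30 members and rose in 4 (2 without TG library 3). PFKFB3, which sets glycolytic flux, went from 11.8, 12.5, 24.7 and 23.02 CPM to 4.76, 3.55, 5.39 and 5.74 CPM (log2 change -1.88, adjusted p = 1.23e-05). VEGFA, an angiogenic factor, went from 51.5, 61.995, 81.7 and 82.1 CPM to 246, 262, 282 and 314 CPM (log2 change 1.99, adjusted p = 2.81e-07). These moved in opposite directions with no overlap in either. Another rise was that of CA12, a carbonic anhydrase (1.97, adjusted p = 9.99e-06). Glycolysis falls were 7 with libraries 1 and 2 alone.

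NRF2 targets, which buffer oxidants, fell in 11 of 22 members and rose in 3. PRDX1, a peroxiredoxin, went from 498, 462, 422 and 445 CPM to 171, 138, 113 and 81.6 CPM (log2 change -1.86, SE 0.18, adjusted p = 5.05e-07). ABCC1, a glutathione conjugate exporter, fell by -0.94 (adjusted p = 2.73e-05). SLC7A11, the cystine importer, which ATF4 also controls, rose from 45.5, 54.9, 134 and 126 CPM to 292, 240.3, 551 and 573 CPM (log2 change 2.20, adjusted p = 0.000663), and GCLC, of glutathione synthesis, rose by 0.57 (adjusted p = 0.00031). Of the list 7 fell with libraries 1 and 2 alone. Autophagy and lysosome genes rose in 10 of 29 members (34.5%, against 20.7% of all genes) and fell in 5 (17.2%, the share of all genes). The falls numbered 9 with the library pairs as a block. MAP1LC3B, the LC3 of autophagosomes, rose from 40.99, 40.3, 38.8 and 44.2 CPM to 115, 98.3, 132 and 115.8 CPM (log2 change 1.49, adjusted p = 3.29e-06). WIPI1 and ATG13 rose by 1.80 (adjusted p = 0.000263) and 1.04 (adjusted p = 2.89e-07), while the lysosomal protease CTSB fell by -0.58 (adjusted p = 0.00203; 0.13 with libraries 1 and 2 alone). The count of rises was 5 without TG library 3 or siMOCOS library 3 or 4, and 4 with libraries 1 and 2 alone.

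Cholesterol synthesis and uptake genes, controlled by SREBP2, rose in 14 of 27 members and fell in 2 (4 without TG library 2, and 1 without TG library 3 or 4 or siMOCOS library 3 or 4). STARD4, a sterol carrier, went from 32.2, 37.01, 51.01 and 48.2 CPM to 131, 125, 149 and 163 CPM (log2 change 1.75, adjusted p = 1.74e-07). SC5D, HMGCS1 and CYP51A1, enzymes of the pathway, rose by 0.89 (adjusted p = 0.000103), 1.08 (adjusted p = 0.000397) and 0.60 (adjusted p = 0.000912). SREBF1, encoding the related factor SREBP1, fell by -0.81 (adjusted p = 0.00989; 0.317 with libraries 1 and 2 alone). The count of rises was 8 with libraries 3 and 4 alone. Fatty acid synthesis rose in 3 of 18 and fell in 3 (16.7% each, below both shares of all genes): ACSL1, FADS1 and ELOVL2 by 0.56, 0.76 and 1.21, and ELOVL6 and SCD5 by -0.58 and -0.79; its falls were 6 with the library pairs as a block.

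Notch and Wnt genes fell in 14 of 29 members and rose in 1. NRARP, a feedback target of Notch, went from 15.7, 13.5, 12.1 and 15.9 CPM to 2.91, 2.46, 0.708 and 1.68 CPM (log2 change -2.88, SE 0.28, adjusted p = 4.79e-07). No TG value reached the lowest untreated one. The Wnt co-receptor LRP5 and the Wnt feedback ligases RNF43 and ZNRF3 fell by -1.95 (adjusted p = 3.97e-05), -1.34 (adjusted p = 6.44e-06) and -1.17 (adjusted p = 2.13e-05). The ligand JAG1 rose by 1.05 (adjusted p = 0.000822). Of 23 AP-1 and early genes 11 rose and 4 fell (2 falls without TG library 1, and 1 without TG library 3 or 4). The falls were 17.4% of the list, near the 17.2% of all genes. FOSB and DUSP8 rose by 1.82 (adjusted p = 3.22e-05) and 1.62 (adjusted p = 3.24e-05); EGR3 was at 0 without TG and had 89 counts with it, at least 7.02-fold higher. With libraries 3 and 4 alone 7 rose. Of 29 interferon response genes 6 rose and 4 fell (2 falls without TG library 3 or siMOCOS library 1), shares near the background. ISG20 and IRF1 rose by 2.02 (adjusted p = 0.000204) and 1.30 (adjusted p = 0.000991), and IFI44L fell by -1.28 (adjusted p = 0.0107).

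**Figure D4:**
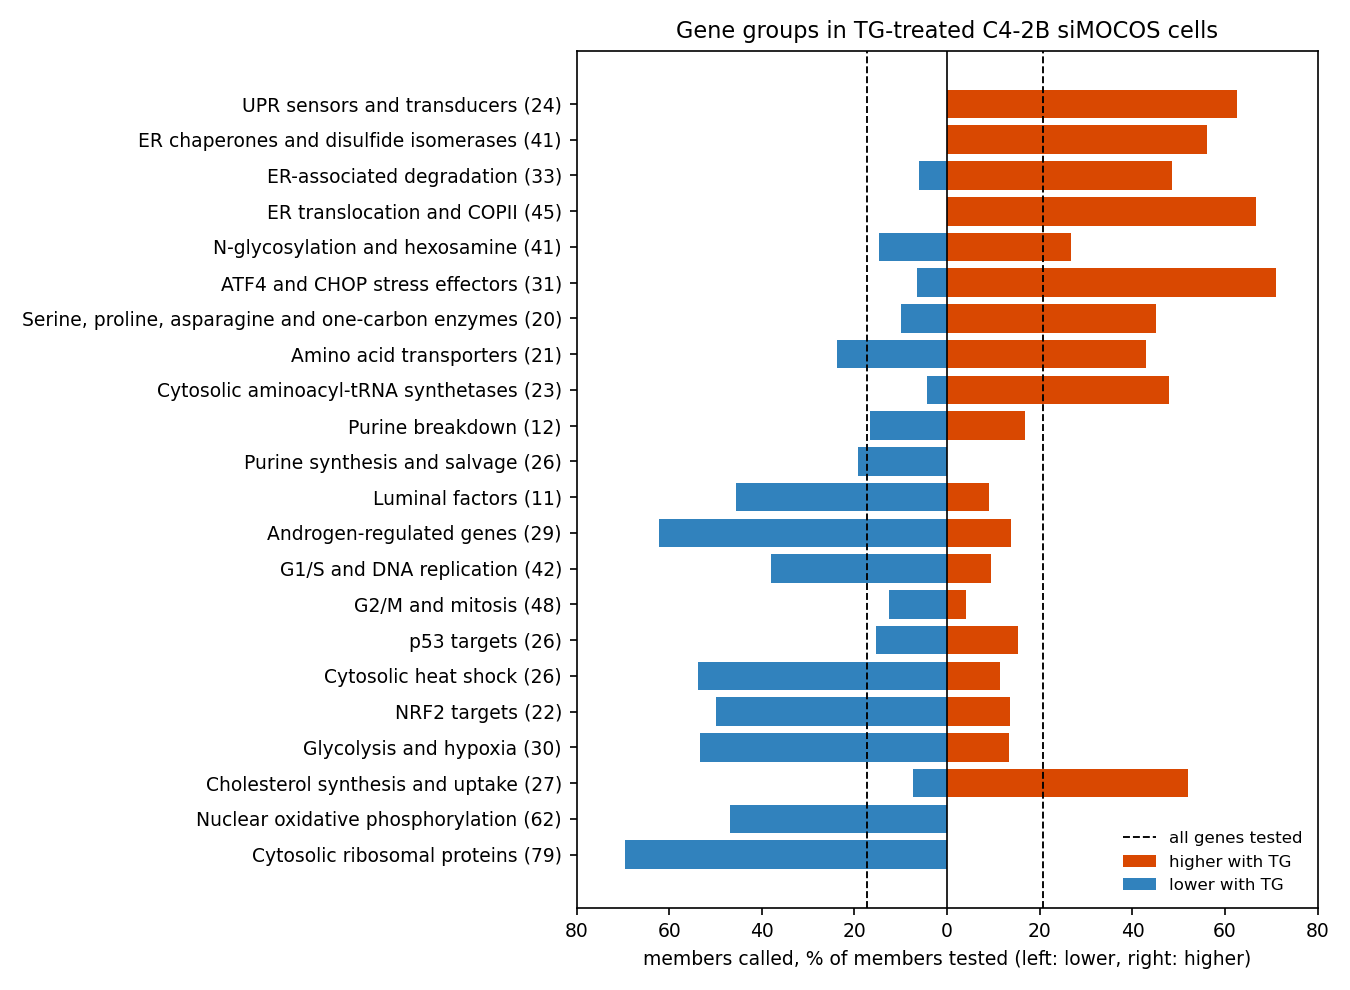
Percent of tested members of each gene list that passed the test higher or lower with TG in the siMOCOS cells; dashed lines mark the 20.7% higher and 17.2% lower over all 14127 genes. COPII, chaperone, ATF4/CHOP and sensor lists lie far past the higher line, and ribosomal protein, androgen-regulated and heat shock lists far past the lower one.

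The largest rises were from near absence, so their fitted changes depend on the prior count added to each library. Summed over 4 libraries, LAMP3, a lysosomal membrane protein of the unfolded protein response, went from 20 to 1611 counts, the epithelial keratin KRT80 from 47 to 3016, the chloride channel BEST1 from 118 to 3023, and GPR1, a chemerin receptor, from 26 to 899. MTUS2 went from 29 to 1030, FIBIN from 9 to 674, C1orf158 from 6 to 746, KIAA1239 from 6 to 769, and the non-coding LINC00346 from 8 to 553. KRT80 stood at 0.7, 1.37, 0.275 and 0.204 CPM without TG and 32.04, 42.7, 33.4 and 43.7 CPM with it (log2 change 5.89, adjusted p = 2.06e-09). LAMP3 stood at 0.377, 0, 0.439 and 0.255 CPM and 21.3, 21.8, 20.3 and 19.1 CPM (log2 change 6.23, adjusted p = 3.77e-09). All 10 of the largest rises, CHAC1 included, had separate groups by the rule that chose them.

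The largest falls started from levels of 5.09 (RUNX2) to 45.8 CPM (WNT7B) in single untreated libraries. APLN, the ligand apelin, went from 19.9, 26.5, 23.9 and 21.7 CPM to 2.58, 2.25, 2.12 and 1.898 CPM (log2 change -3.38, SE 0.21, adjusted p = 2.82e-09). DGAT2, which makes triglyceride, went from 16.1, 19.3, 15.98 and 16.2 CPM to 2.63, 2.51, 1.25 and 0.906 CPM (log2 change -3.22, adjusted p = 8.97e-08). RUNX2, an osteogenic transcription factor, went from 7.86, 9.23, 5.93 and 5.09 CPM to 0.784, 0.993, 0.708 and 1.42 CPM (log2 change -2.82, adjusted p = 4.04e-07). All 3 kept the 2 groups apart. WNT7B, BCHE and DEFB132 fell by -2.67 (adjusted p = 8e-05), -3.01 (adjusted p = 1.01e-08) and -3.19 (adjusted p = 4.7e-06). HMGN2P46 and LOC100508046, whose counts may be split with near-identical sequence, fell by -2.73 and -3.36. NRARP was also among the 10.

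Most of this response was also seen in C4-2B cells with the control siRNA, in separate libraries, where TG changed 5725 of the same 14127 genes (40.5%; 21.2% higher, 19.3% lower). Of the genes that rose in siMOCOS cells 2264 also rose in siCTRL cells (77.4% of the siMOCOS rises, 75.5% of the siCTRL rises), and 1880 fell in both (77.2% and 68.9%). Only 8 genes passed in opposite directions. Few genes passed the test of the difference itself: the TG change differed between siMOCOS and siCTRL cells for 10 genes (0.0708%), 4 more positive under the knockdown (0.0283%) and 6 more negative (0.0425%), while 982 had an unadjusted p under 0.05. With DESeq2 85 genes passed, and with the GC and length correction 56. Leaving out 1 library left 1 gene (without siCTRL TG library 2, siMOCOS TG library 2 or siMOCOS library 4) to 11 (without siCTRL library 4); it was 7 without siMOCOS TG library 4 and at most 6 without any other library. MOCOS and XDH were not among them: MOCOS rose by 2.14 under the knockdown and by 1.501 in control cells (difference 0.63, SE 0.29, adjusted p = 0.663), and XDH by 2.61 and 3.24 (difference -0.63, SE 0.27, adjusted p = 0.605). HSPA5 rose by 1.85 and 1.05 (difference 0.80, SE 0.23, adjusted p = 0.265) and CHAC1 by 4.53 and 2.79 (difference 1.74, SE 0.43, adjusted p = 0.179). These differences did not pass, which does not show that the responses were alike.

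The cholesterol genes SQLE and INSIG1 were 2 of the 4 genes whose TG response was more positive under the knockdown. SQLE, squalene epoxidase, stood at 90.2, 85.7, 67.2 and 72.97 CPM in the siMOCOS libraries and 143, 128, 104 and 96.8 CPM with TG, against 114, 114, 93.01 and 89.4 CPM and 50.3, 54.4, 68.4 and 58.4 CPM in the control cells. It rose in the first pair of groups (log2 change 0.58, adjusted p = 0.00578) and fell in the second (-0.83, adjusted p = 0.00036), a difference of 1.40 (SE 0.21, adjusted p = 0.0195). That call was lost, with an adjusted p of up to 0.0754, without siCTRL TG library 1, 2 or 4, siMOCOS TG library 2 or siMOCOS library 4. INSIG1, which holds SREBP in the ER, stood at 218, 241, 253 and 251 CPM and 344, 309.5, 270.3 and 265 CPM under the knockdown and at 465, 329.8, 394 and 376 CPM and 217, 214, 169 and 223 CPM in control cells. It fell with TG in control cells (log2 change -0.93, adjusted p = 2.64e-05) and did not pass under the knockdown (0.30, adjusted p = 0.07), and the difference was 1.23 (SE 0.18, adjusted p = 0.0195). Its call was lost, with an adjusted p of up to 0.0653, without siCTRL TG library 2, siMOCOS TG library 2, or siMOCOS library 1 or 4. In 25 of 27 cholesterol genes the difference was positive, against 7603 of all 14127, and only SQLE and INSIG1 passed. Other lists leaned the same way, with 43 of 45 ER entry and COPII genes and 36 of 41 ER chaperones positive. So did 43 of 48 G2/M genes and 53 of 62 oxidative phosphorylation genes. Lists that leaned the other way included the androgen-regulated genes, with 8 of 29 positive, and the p53 targets, with 4 of 26. The cholesterol list had 14 rises and 2 falls in siMOCOS cells (median log2 change 0.36) and 5 and 6 in control cells (median 0.00868).

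Of the p53 targets, 13 rose with TG in control cells and 4 under the knockdown, but the difference passed for none of the 26 (lowest adjusted p = 0.207). The difference was positive in 4. The knockdown groups pool 2 siRNAs and split into library pairs, so these counts are not measured alike. Under the knockdown the count was 9 with the library pairs as a block or libraries 3 and 4 alone. CDKN1A changed by 1.92 in control cells (adjusted p = 0.000471) and by 0.56 under the knockdown (difference -1.36, SE 0.50, adjusted p = 0.466). NRCAM, a neuronal adhesion molecule under 5 CPM and so outside the naming rule, was the one gene of the 10 that passed in all 22 alternatives: it stood at 1.94, 2.42, 2.14 and 2.09 CPM and 2.74, 2.61, 2.02 and 2.24 CPM under the knockdown and at 0.349, 0.355, 0.203 and 0.304 CPM and 2.39, 1.82, 2.49 and 2.13 CPM in control cells. TG raised it in control cells (log2 change 2.84, adjusted p = 3.82e-07) and not under the knockdown (0.16, adjusted p = 0.559), a difference of -2.68 (SE 0.34, adjusted p = 0.00444). The remaining 7 genes passed in at most 10 of 22 alternatives and lost the call under the omission of many single libraries, controls included. They are ADAMTS1, a secreted protease, which fell in both backgrounds (-0.89 under the knockdown, -1.95 in control cells), DDR2, a collagen receptor, which rose in both (0.91 and 2.45), RDH11, a retinal reductase (-1.08 and -0.30), COL24A1 (-1.16 and 0.60), and the uncharacterised loci LOC101060376 (0.44 and 1.79), LOC102723433 (0.21 and 2.34) and LOC102724951 (3.45 and -3.80).

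**Figure D5:**
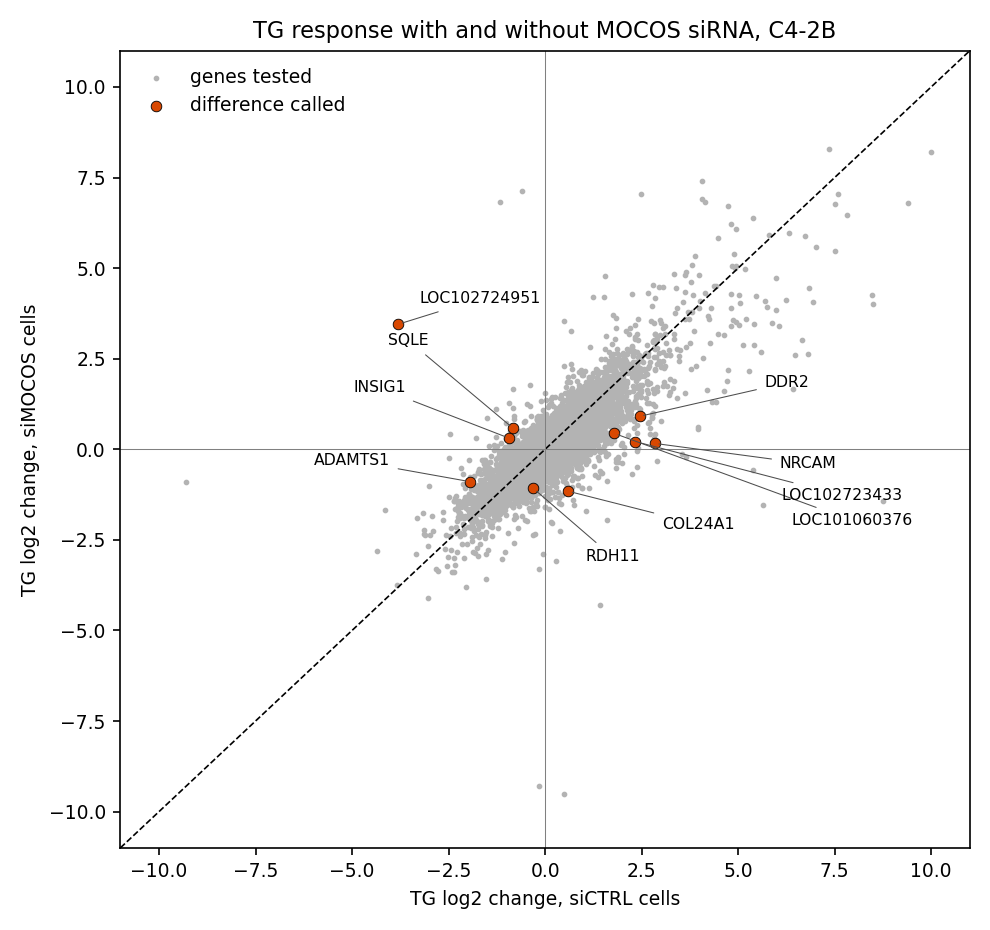
Log2 change with TG in siCTRL cells (horizontal) against siMOCOS cells (vertical) for the 14127 genes tested in C4-2B; coloured points are the 10 genes whose difference passed the test, and the diagonal marks equal changes. The 2 axes share no library, and most points lie near the diagonal.

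The same treatment of MOCOS-depleted LNCaP cells changed 6159 of 14628 genes tested over both lines (42.1%; 20.6% higher, 21.5% lower). The TG change differed between the lines for 57 genes (0.390%), 32 more positive in LNCaP (0.219%) and 25 more negative (0.171%). In LNCaP, MOCOS went from 3.75 ± 0.296 CPM to 14.3 ± 4.11 CPM (mean ± SD, n = 4) and XDH from 4.04 ± 1.06 CPM to 31.6 ± 2.16 CPM, log2 changes of 1.93 and 2.999. Their differences from C4-2B were -0.18 (SE 0.28, adjusted p = 0.978) and 0.42 (SE 0.23, adjusted p = 0.784), neither past the test.

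The genes whose log2 change was more positive in C4-2B were led by OR51E2, an olfactory receptor known as a prostate marker. OR51E2 was near 0 in C4-2B without TG, so its fitted change there depends on the prior count. In CPM, its group means lay further apart in LNCaP. It stood at 0, 0.165, 0.22 and 0.255 CPM in C4-2B siMOCOS libraries and 2.297, 2.09, 3.32 and 4.31 CPM with TG, against 108 ± 9.89 CPM and 160.2 ± 17.4 CPM in LNCaP (difference of log2 changes -3.57, SE 0.47, adjusted p = 9.04e-05). NKAIN1, a sodium pump partner, rose in C4-2B from 0.646, 0.714, 0.384 and 0.356 CPM to 15.7, 15.4, 8.28 and 7.72 CPM and stood at 1.06 ± 0.425 CPM and 3.5997 ± 1.18 CPM in LNCaP (difference -2.73, adjusted p = 0.0045). In both, the C4-2B groups were separate. FRMD3, LINC01133 and the phosphatase PTPRR had differences of -1.45 (adjusted p = 0.00873), -1.44 (adjusted p = 0.00219) and -1.46 (adjusted p = 0.00418). In the other direction, TRIB2, a pseudokinase related to TRIB3, fell in C4-2B from 22.4, 23.2, 31.2 and 33.5 CPM to 8.68, 9.46, 10.2 and 10.7 CPM and went from 0.437 ± 0.168 CPM to 0.989 ± 0.223 CPM in LNCaP (difference 2.78, SE 0.37, adjusted p = 9.04e-05). RCAN1, a calcineurin regulator induced by calcium, stood at 14.5, 17.5, 23.1 and 20.7 CPM and 23.8, 23.7, 27.02 and 24.8 CPM in C4-2B and at 21.05 ± 3.62 CPM and 83.04 ± 18.1 CPM in LNCaP (difference 1.63, SE 0.21, adjusted p = 9.04e-05). CCDC80, a secreted matrix protein, had a difference of 2.84 (adjusted p = 0.00253). KIAA1199, a hyaluronan-binding protein, differed by 2.03 (adjusted p = 0.0255), a call lost, with an adjusted p of up to 0.142, without C4-2B siMOCOS TG library 1, C4-2B siMOCOS library 2, LNCaP siMOCOS TG library 3, or LNCaP siMOCOS library 2 or 4. With DESeq2 96 genes passed the line difference, and without 1 library in turn 33 to 61; the count was below 38 without C4-2B siMOCOS TG library 1 (36), C4-2B siMOCOS library 2 (35), LNCaP siMOCOS TG library 3 (33) or 4 (35), or LNCaP siMOCOS library 2 (37) or 4 (37).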

How the data were processed

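Poly-A RNA of C4-2B and LNCaP cells was sequenced with a strand-specific kit, per the labels' protocols. The authors deposited length-scaled expected counts per gene for 32 libraries. The submitters' processing notes name hg38, the quantifier Salmon 1.5.2, the aligner STAR 2.6.1d, and for trimming and quality control FastQC 0.11.9, cutadapt 3.4 and Trim Galore 0.6.7, with no order; the gene annotation is not given in the sources used here. Length scaling corrects for transcript length between samples, so values are not read counts (all values above 0 had decimals at a tolerance of 1e-06).

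Counts were rounded and fitted in edgeR 4.0.16 (R 4.3.3) to the 16 C4-2B libraries: filterByExpr (14127 of 29744 genes kept), TMM scaling, 4 group means (12 residual degrees of freedom), quasi-likelihood tests, Benjamini-Hochberg adjustment over all genes, calls at 0.05. The line difference used all 32 libraries (14628 genes). Standard errors were computed from the unshrunken change and the F statistic, while printed log2 changes are shrunken toward 0 by edgeR's prior count. No value column was left unused (0). The fit was tested on simulated data. Alternatives were DESeq2 1.42.0, RLE scaling, other filters, replicate and library-pair blocks, subsets of libraries, leaving out each library and a GC and length correction.

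Replicates are called biological in the series' design; p-values measure the spread between these libraries. The genes named are MOCOS, XDH, AOX1, SUOX, all tested sensors, the 10 largest rises and falls at 5 CPM or more with separate groups, up to 4 members of each list with the smallest adjusted p and up to 2 against its majority, and the 5 largest differences of response in each direction. Most others are said to be chosen after their values were seen, or by their promoter letters. MOCS1, MOCS2, MOCS3, GPHN, ADA, AMPD2 and ITPA were also named outside this rule. NRCAM and COL24A1 were named because their difference of response passed. The members and lists were chosen with earlier results of these data known. Lists share genes, ATF3, TRIB3 and MYC among them, so their counts are not independent. Of the genes tested 10787 (76.4%) matched a RefSeq promoter. Mitochondrially encoded transcripts were not analysed here. A few genes that the lists or the naming rule held are not reported here, and list counts leave them out.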

Additional observations from a re-analysis of the deposited data

Results flagged for a closer look

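A library was flagged as apart from the other 3 of its group by its gap to the nearest divided by the group's range. This ratio passed the critical value of Dixon's test in 9 of 434 groups of 4 libraries examined. Chance gives 1 in 20 for independent values. These libraries split into pairs, so a lower rate does not show that they were free of outliers. Without TG, the ratio was 0.876 for ADAL (38.0 CPM in library 4, 34.9 to 35.3 in the others), 0.961 for AEN (51.6 in library 3, 47.5 to 47.7), 0.873 for CHAC1 (2.29 in library 4, 0.862 to 1.04) and 0.921 for DGAT2 (19.3 in library 2, 15.98 to 16.24). It was 0.933 for FRMD3 (9.42 CPM in library 4, 11.7 to 11.9), 0.841 for GCLC (75.0 in library 3, 84.4 to 86.2), 0.873 for RPL24 (624 in library 4, 657 to 662) and 0.850 for SRPR (174 in library 2, 147 to 151). With TG, it was 0.834 for CREB3L4 (68.5 CPM in library 2, 79.4 to 81.6).

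The TG response differed between siMOCOS and siCTRL cells, by the test of the difference, for 10 genes. The difference of log2 changes was 7.26 for LOC102724951 (adjusted p = 0.0495), 1.40 for SQLE (adjusted p = 0.0195), 1.23 for INSIG1 (adjusted p = 0.0195) and 1.05 for ADAMTS1 (adjusted p = 0.0459). It was -2.68 for NRCAM (adjusted p = 0.00444), -2.13 for LOC102723433 (adjusted p = 0.0495), -1.76 for COL24A1 (adjusted p = 0.0495), -1.54 for DDR2 (adjusted p = 0.0471), -1.35 for LOC101060376 (adjusted p = 0.0471) and -0.78 for RDH11 (adjusted p = 0.0495). Of 22 alternatives, NRCAM passed in 22, INSIG1 in 18, SQLE in 17, ADAMTS1 in 10, DDR2 in 8, LOC101060376 and LOC102724951 in 7, RDH11 in 6, and COL24A1 and LOC102723433 in 5. LOC102724951 stood at 0.916, 1.04, 0.165 and 0 CPM in siMOCOS libraries, 0.448, 1.88, 11.7 and 9.19 with TG, 15.5, 1.33, 17.9 and 18.9 in siCTRL libraries and 1.73, 0.546, 0.623 and 1.02 with TG, so libraries of 1 group differed by more than 10-fold; counts of such loci may be shared with near-identical sequence.

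The TG response of MOCOS-depleted cells differed between the lines for 57 genes, of which 10 are named. The difference of log2 changes, LNCaP minus C4-2B, was -3.57 for OR51E2 (adjusted p = 9.04e-05), -2.73 for NKAIN1 (adjusted p = 0.0045), -1.46 for PTPRR (adjusted p = 0.00418), -1.45 for FRMD3 (adjusted p = 0.00873) and -1.44 for LINC01133 (adjusted p = 0.00219). It was 2.84 for CCDC80 (adjusted p = 0.00253), 2.78 for TRIB2 (adjusted p = 9.04e-05), 2.03 for KIAA1199 (adjusted p = 0.0255) and 1.63 for RCAN1 (adjusted p = 9.04e-05). For LOC102724783 it was 5.29 (adjusted p = 0.0481), a fitted value that depends on the prior count because the gene was at 0 in the LNCaP siMOCOS libraries, and it passed in 2 of 21 alternatives.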

How the results depend on the processing

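The count of genes changed by TG in siMOCOS cells, 5360, stayed within 1.5 times in all 18 alternatives: 3817 with libraries 1 and 2 alone, 6671 with the library pairs as a block, and 4580 to 5553 without 1 library; no gene called in the main analysis was called with the opposite sign. The difference between siMOCOS and siCTRL cells, 10 genes, moved to 85 with DESeq2, 6 with no filter on low counts, 3 with the replicate block, 56 with a GC and length correction chosen after seeing the data, and 1 to 11 without 1 library; the cause was not tested. The line difference, 57 genes, moved to 96 with DESeq2 and was 33 to 61 without 1 library. Of 237 results for single genes 172 passed in the main analysis and in every alternative, and none that passed in the main analysis changed sign; some that did not pass did. Of 80 counts of list members 36 stayed within 1.5 times in every alternative. Deviations of same-numbered libraries with and without TG correlated at 0.63, 0.25, 0.05 and 0.57 for numbers 1 to 4. Differently numbered libraries reached 0.675 (siMOCOS library 3 with TG library 4). These values do not settle whether the numbers pair the samples, and the main fit used no pairing. With the replicate block 5501 genes passed in the main comparison and 48 in the line difference.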
